A study of Mus musculus with 20 samples.

Results

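The 10 genes described here encode enzymes that cut and finish neuropeptides and the granins that fill dense-core granules: Pcsk1, Pcsk2, Pcsk1n, Cpe, Pam, Scg2, Scg3, Scg5, Chga and Chgb. They were taken by symbol from a table of 55487 mouse genes, and each of the 10 matched 1 gene. The group was selected on function with 1 measured value in view, the higher Pcsk2 count in somata labelled KO found in an earlier pass over these data. The RNA is from mouse subcerebral projection neurons at postnatal day 1, either from somata taken from the cortex or from growth cones taken from brainstem and spinal cord. There were 5 libraries each of WT somata, somata labelled Bcl11b KO, WT growth cones and growth cones labelled Bcl11b KO, the 2 genotypes that the labels name. Strain, the null allele, the way the neurons were marked and sorted and the number of animals behind a library are not given in the sources used here. Because nothing says that libraries of a group came from separate animals, the p-values below measure only the spread between libraries, which may be technical.

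Neuropeptides are made as long precursors that enter the regulated secretory pathway and are packed into dense-core granules in the trans-Golgi network. Inside the acidifying granule, the prohormone convertases PC1/3 (Pcsk1) and PC2 (Pcsk2) cut at pairs of basic residues, carboxypeptidase E (Cpe) trims those residues away, and peptidylglycine alpha-amidating monooxygenase (Pam) amidates the exposed end. ProSAAS (Pcsk1n) and 7B2 (Scg5) bind PC1/3 and PC2, and the granins chromogranin A (Chga), chromogranin B (Chgb), secretogranin II (Scg2) and secretogranin III (Scg3) aggregate in the granule core and are themselves cut into peptides. Neurons carry such granules along axons as well as dendrites, so cell body and axon tip both hold this machinery as protein.

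The promoters of the group were read to see what the members share apart from function. A promoter of 300 bases, from 250 before to 50 after the RefSeq start (RefSeq, GRCm38.p6), was matched for 9 of the 10 genes, all but Cpe. The full cAMP response element TGACGTCA, searched on both strands, lay in 3 of the 9, against 2.03% of 27025 genes with promoters of the same length (1.79% of 32851 promoters). Its first letters alone, TGACG on either strand, which lie inside the full element, were present in 7 of the 9, against 23.0% of all genes (20.8% of all promoters). Windows of 30 bases are shown around the full element or, where it is absent, around the last TGACG match before the RefSeq start. Scg5 had further such matches at positions 20 and 41 after its start, which are not shown. The full element was chosen because it is the rarest in all promoters of the motifs searched, of which it is also the longest. They are written 5′ to 3′ on the gene's strand, with the match in capitals.
Pcsk1: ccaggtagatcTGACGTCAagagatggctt
Scg2: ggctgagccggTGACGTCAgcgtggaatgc
Chgb: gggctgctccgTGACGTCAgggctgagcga
Chga: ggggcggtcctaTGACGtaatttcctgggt
Scg3: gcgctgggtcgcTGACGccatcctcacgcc
Scg5: aaaggaggtaaaTGACGttcataggggtcg
Pcsk2: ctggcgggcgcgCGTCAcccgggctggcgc

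These windows lie at chr13:75089768-75089797 for Pcsk1, chr1:79440076-79440105 for Scg2, chr2:132781559-132781588 for Chgb, chr12:102554885-102554914 for Chga, chr9:75684069-75684098 for Scg3, chr2:113829249-113829278 for Scg5 and chr2:143546087-143546116 for Pcsk2. Pcsk1, Pcsk2, Chga and Chgb lie on the plus strand, and Scg2, Scg3 and Scg5 on the minus strand. The match begins 78 bases before the RefSeq start in Pcsk1, 68 in Scg2, 72 in Chgb, 44 in Chga, 30 in Scg3, 175 in Scg5 and 34 in Pcsk2, where it is read on the other strand. The windows of Scg2 and Chgb fall inside the gene bounds of the deposited table, whose starts lie further upstream. The GC box GGGCGG was also in 7 of the 9 genes, against 38.2% of all genes, TATAAA in 1 (Chga), against 15.7%, and TGACCA in 0, against 15.4%. These are matches of letters only.

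The deposited table gives these genes the following bounds on GRCm38. Among the convertases and their binding partners, Pcsk1 (ENSMUSG00000021587.5) spans chr13:75089826-75134861, Pcsk2 (ENSMUSG00000027419.9) chr2:143546156-143816285, Pcsk1n (ENSMUSG00000039278.10) chrX:7919822-7924410 and Scg5 (ENSMUSG00000023236.7) chr2:113776362-113829121. The trimming and amidating enzymes are at chr8:64592542-64693054 for Cpe (ENSMUSG00000037852.8) and chr1:97795114-98095646 for Pam (ENSMUSG00000026335.16). The granins are at chr1:79434669-79440120 for Scg2 (ENSMUSG00000050711.7), chr9:75643189-75684056 for Scg3 (ENSMUSG00000032181.7), chr12:102554969-102565028 for Chga (ENSMUSG00000021194.6) and chr2:132781278-132795079 for Chgb (ENSMUSG00000027350.8). All are protein coding, and values are sums over all exons of a gene. Of the 10 genes, 3 share exon bases with another gene: Pcsk2 with the antisense genes Pcsk2os1 and Pcsk2os2, Pcsk1n with Eras on the other strand, and Pam with B230216N24Rik on the same strand. The use of strand in counting is not given in the sources used here, so reads in the shared bases cannot be assigned with certainty.

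Total counts per soma library were 18962308 to 36059112 (WT) and 35243688 to 51205154 (labelled KO). For growth cones the totals were 26382991 to 29323028 (WT) and 21657575 to 27723067 (labelled KO). Libraries are named by the experiment number in their titles. Bcl11b, the targeted transcription factor, went against the soma labels: its level was higher in somata labelled KO, at 1150 ± 56.7 CPM (SD, n = 5), than in WT somata, at 700 ± 130 CPM, with no overlap of libraries. The difference in log2 (CPM + 0.5) was 0.74 (two-sided exact permutation p = 0.00794, the lowest value that 5 against 5 allows, and 0.0159 adjusted over 2 tests). In growth cones Bcl11b stood at 101 ± 19.3 CPM in WT and 102 ± 35.0 CPM in those labelled KO (difference -0.03, exact p = 0.944). Gene-level counts include reads from any exon left in a null allele, and which exons the allele lacks is not given in the sources used here. Every direction between genotypes below therefore rests on the label alone.

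Compared with each other per kilobase of exon, the 10 genes covered a wide range of levels. In WT somata the order from the highest mean was Cpe at 477 ± 53.9 CPM per kilobase (SD, n = 5), Scg5 at 138 ± 10.8, Chgb at 70.4 ± 21.5, Pcsk1n at 70.2 ± 24.6, Scg3 at 48.0 ± 8.08, Chga at 29.2 ± 4.53, Scg2 at 28.1 ± 7.36, Pcsk2 at 9.78 ± 2.03, Pam at 0.312 ± 0.204 and Pcsk1 at 0.259 ± 0.519. Single libraries of neighbours in this order overlapped for Chgb and Pcsk1n, Pcsk1n and Scg3, Chga and Scg2, and Pam and Pcsk1. The order within those pairs is that of the means only and was not tested within libraries. In somata labelled KO the order was the same at its top and bottom, but Pcsk2, at 29.5 ± 3.22 CPM per kilobase, stood in the range of Chga (31.8 ± 7.49) and above Scg2 (13.9 ± 6.58). In growth cones Pcsk1n had the highest mean of the 10, at 302 ± 70.9 CPM per kilobase in WT and 265 ± 76.8 in those labelled KO. Its libraries overlapped there with those of Cpe, at 280 ± 33.2 and 264 ± 47.8. The enzymes thus sat at both ends of the group, with carboxypeptidase E near the top and PC1/3 and the amidating enzyme at the bottom in all 4 groups.

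**Figure D1:**
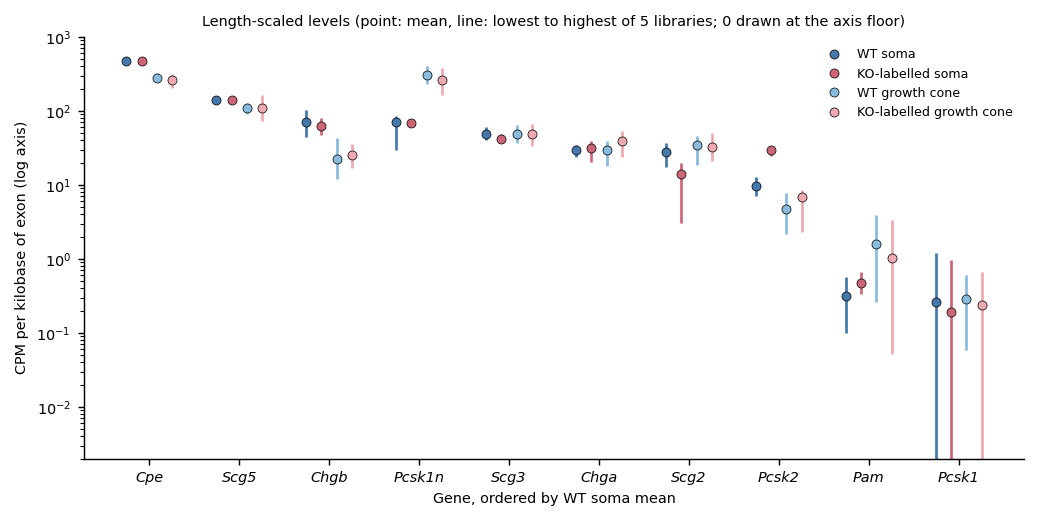
Levels of the 10 genes in CPM per kilobase of exon on a log axis, ordered by the WT soma mean; points are means and lines run from the lowest to the highest of 5 libraries, with 0 drawn at the axis floor. Cpe is at the top and Pam and Pcsk1 are at the bottom in each group, and Pcsk1n joins Cpe at the top in growth cones.

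Each comparison was fitted over all genes with edgeR's quasi-likelihood test, and a gene was called at a Benjamini-Hochberg adjusted p under 0.05 over all genes tested. Between WT somata and somata labelled KO, 1 of the 9 members tested was called, Pcsk2, which was higher in those labelled KO, where 0.731% of all 14911 genes were called and 0.416% were called higher. Pcsk2 was known to be called there when the genes were chosen, so this contrast is described without tests and nothing is read from that count. Between the 2 kinds of growth cones, 0 of the 10 members were called, where the share of all 15419 genes was 0%. No member had an unadjusted p under 0.05 there (0 of 10), and DESeq2's Wald test also called 0. Between growth cones and somata, 5 of 10 members were called in WT, 2 higher and 3 lower in growth cones, and 5 of 9 in libraries labelled KO, again 2 higher and 3 lower. Pcsk2 is among the lower ones in both genotypes and, as chosen through the 2 kinds of somata, is a description in both. Of all genes, 42.8% were called in WT (23.1% higher, 19.7% lower) and 38.7% in libraries labelled KO (21.4% higher, 17.3% lower), so the members' counts lie near the background. The 2 compartment comparisons share no library with each other.

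**Figure D2:**
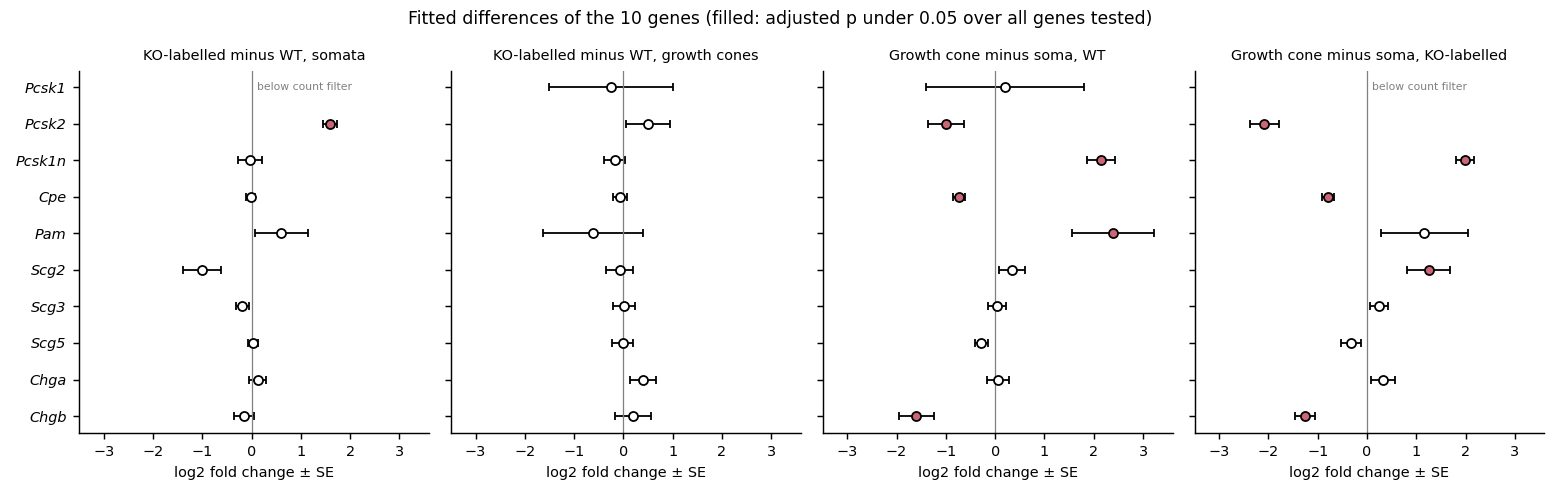
Fitted log2 fold changes (points) with standard errors (bars) for the 10 genes in the 4 comparisons; filled points were called by edgeR over all genes tested, and Pcsk1 fell below the count filter in both comparisons that use somata labelled KO. Pcsk1n lies to the right and Cpe, Chgb and Pcsk2 lie to the left in both growth cone against soma panels. The filled points for Pcsk2 are all descriptions, since the somata in those panels were in view when the genes were chosen.

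Growth cone and soma libraries also differed in the tissue they came from and in markers of other cells, and these values belong beside every compartment difference below. RNA input was given as 0.19 to 3.1 ng for growth cones and 1.8 to 3.1 ng for somata. Experiment numbers were 7 to 11 for growth cones and 12 to 26 for somata, so number and compartment cannot be told apart. The summed level of 15 hindbrain and spinal cord genes, led in growth cones by Hoxb5 and Hoxa5, was 94.4 to 170 CPM in WT growth cones and 71.4 to 235 in those labelled KO, against 0.0573 to 0.209 and 0.0310 to 0.105 in somata. In each genotype 7 of the 15 passed the count filter, through their growth cone counts. In WT somata 5 of the 15 had 0 counts in every library (Hoxa3, Hoxb3, Hoxc4, Lbx1, En1), and in somata labelled KO 8 did. The 6 choroid plexus genes, led by Ttr, summed to 249 to 417 and 203 to 363 CPM in growth cones and to at most 0.595 and 2.01 in somata. The 10 forebrain interneuron genes, led in growth cones by Gad1 and Gad2, summed to 396 to 585 and 429 to 542 CPM in growth cones, against 18.2 to 63.4 and 12.7 to 56.8 in somata. Of these genes, 8 of 9 tested in WT and 9 of 10 in libraries labelled KO were called higher in growth cones. Over all genes, 23.1% were called higher and 19.7% lower in WT, and 21.4% and 17.3% in libraries labelled KO. In WT, higher levels in growth cones were called for 7 of 8 astrocyte genes (Aldoc among the leading ones), 5 of 8 oligodendrocyte genes (Mbp) and 5 of 8 vessel and blood genes tested (Hba-a1). In libraries labelled KO the counts were 4 of 8, 5 of 8 and 5 of 8. The genes tested on these 4 lists include Slc32a1, S100b, Sox10, Cspg4, Flt1, Kdr, Col1a1 and, in libraries labelled KO, Dlx6. These failed the count filter between the 2 kinds of somata and passed here through their growth cone counts. Their direction was thus set by the filter. Summed levels in growth cones were 588 to 965 CPM for astrocyte, 458 to 2089 for oligodendrocyte and 286 to 690 for vessel and blood genes, against 19.8 to 251, 59.9 to 110 and 0.373 to 67.8 in somata. The 8 callosal projection neuron genes, led by Ptn, summed to 787 to 1028 and 777 to 1057 CPM in growth cones and to 375 to 470 and 294 to 443 in somata, with 6 called higher and 1 lower in growth cones in each genotype. The 11 genes of subcerebral projection neurons, which include Fezf2, Ldb2 and Pcp4, had lower sums in growth cones, at 779 to 1050 and 691 to 1168 CPM, than in somata, at 1930 to 2333 and 2079 to 2185. Of these 11, 2 were called higher and 7 lower in growth cones in WT, and 3 higher and 7 lower in libraries labelled KO. The part of these cells in the members' compartment differences was not tested. In bulk libraries such as these, fewer cells of a type and less RNA per cell cannot be told apart.

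**Figure D3:**
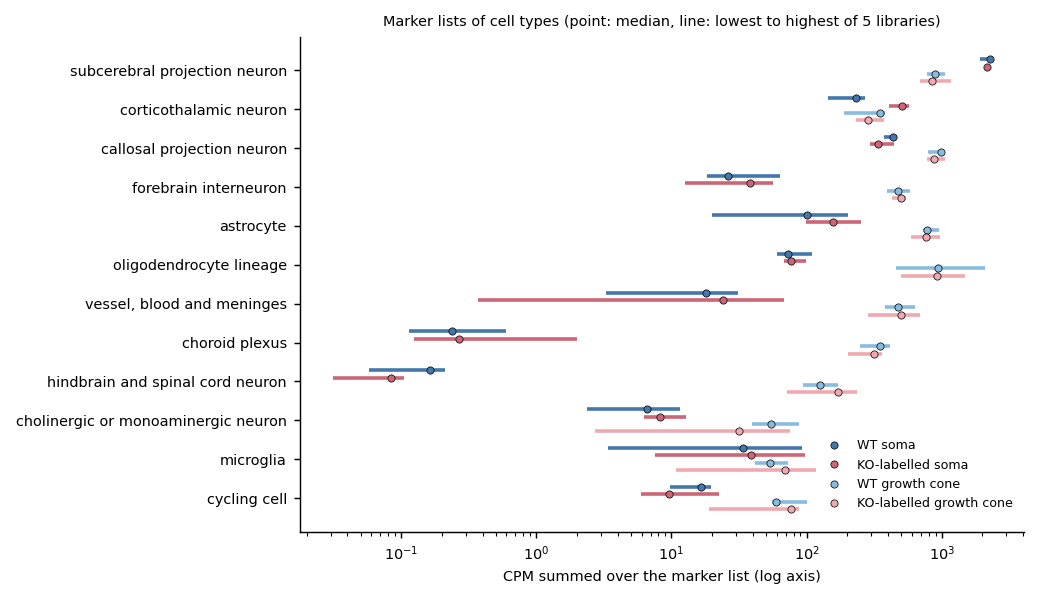
Summed CPM of 12 lists of cell type markers on a log axis; points are medians and lines run from the lowest to the highest of 5 libraries in each of the 4 groups. The hindbrain and spinal cord list and the choroid plexus list stay at or below 2.01 CPM in every soma library and above 71 CPM in every growth cone library, and the corticothalamic list separates the 2 kinds of somata.

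Pcsk2, the convertase that completes the cutting of many neuropeptide precursors and needs 7B2 for its activity, stood apart in the somata labelled KO, the pattern known when the genes were chosen. In WT somata 12, 14, 22, 25 and 26 it stood at 72.7, 55.7, 78.3, 100 and 80.0 CPM. In somata labelled KO 14, 15, 22, 25 and 26 it stood at 191, 249, 231, 257 and 238 CPM. Every library labelled KO was above every WT library. The means were 77.4 ± 16.04 and 233 ± 25.5 CPM (SD, n = 5), a ratio of 3.01, and the fitted log2 fold change was 1.59 ± 0.15 (SE). No overlap of libraries was found for 3.17% of all genes in this comparison, a share given as background only. Beside this, the summed level of 7 corticothalamic neuron genes, led by Tbr1 and Tle4, was 145 to 269 CPM in WT somata and 408 to 573 CPM in somata labelled KO, also without overlap. Of the 7, 2 were called, both higher (6 at an unadjusted p under 0.05), where 0.731% of all genes were called. No gene of that list had 0 counts throughout. Subcerebral genes summed to 1930 to 2333 and 2079 to 2185 CPM, and interneuron genes to 18.2 to 63.4 and 12.7 to 56.8 CPM, with overlap. Of the 11 subcerebral genes, 4 were called between the 2 kinds of somata, 2 in each direction. For these 11, 8 had an unadjusted p under 0.05 and 5 showed no overlap of libraries. Of the 8 interneuron genes tested 0 were called (0 at an unadjusted p under 0.05). The part of the corticothalamic and subcerebral genes in the Pcsk2 difference was not tested.

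In growth cones, Pcsk2 was spread widely within each genotype. WT growth cones 7 to 11 gave 27.0, 16.9, 59.0, 61.1 and 24.3 CPM, and growth cones labelled KO gave 67.7, 64.9, 50.5, 18.1 and 65.9 CPM. The groups overlapped, with 1 library labelled KO (number 10) as low as the lowest WT libraries. The log2 fold change was 0.49 ± 0.45 (SE; edgeR adjusted p = 1.00). The genotype difference in growth cones minus that in somata was -1.09 ± 0.48 on the log2 scale, given without a test because it uses the soma difference that was known. Over all members that term was called for 0 of the 10 members (1 at an unadjusted p under 0.05, 0 by DESeq2's Wald test), where 0.0397% of 17645 genes were called. The 1 at an unadjusted p under 0.05 was Pcsk2 itself, so that count is a description too.

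The mean level of Pcsk2 was lower in growth cones than in somata in both genotypes. In libraries labelled KO the fitted difference was -2.08 ± 0.30 on the log2 scale. It is given without a test, because it holds the same somata labelled KO through which the gene was chosen. In WT the difference was -0.998 ± 0.356 (edgeR adjusted p = 0.0394), and 2 growth cone libraries (9 and 10) reached the soma range. The contrast through which the gene was chosen also held these WT somata, so this p-value is read as a description. The WT call was lost when any 1 of 8 of the 10 libraries was left out (edgeR adjusted p up to 0.115, all but WT growth cones 9 and 10), and under each other scaling tried in edgeR. The antisense gene Pcsk2os1, which shares exon bases with Pcsk2, ran higher in growth cones, at 4.25 to 30.1 CPM, than in somata, at 0.535 to 9.90 CPM, and Pcsk2os2 was at or near 0 throughout.

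**Figure D4:**
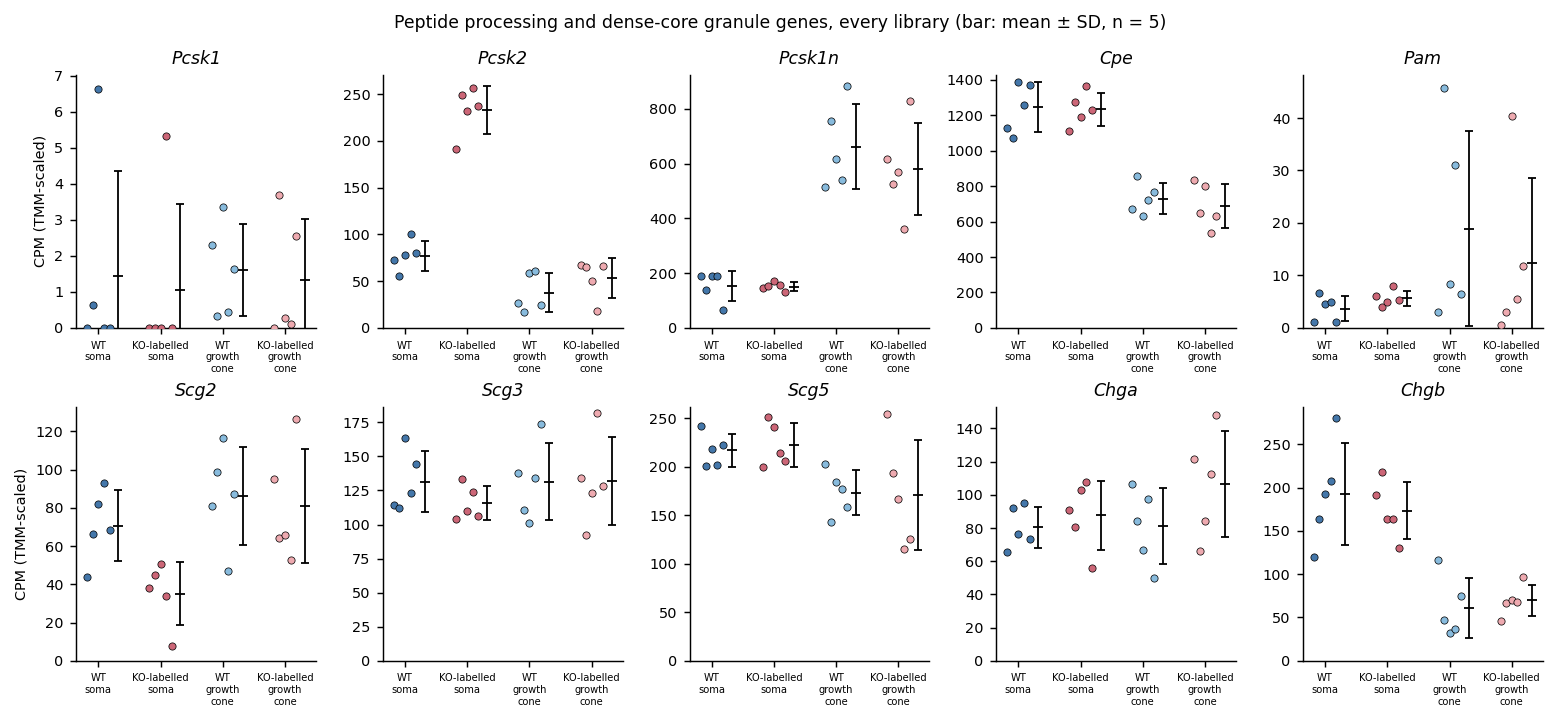
Level of each of the 10 genes in every library, in CPM with scaling over all 20 libraries; the vertical bars beside the points are the mean ± SD of 5 libraries, cut off at 0. The somata labelled KO stand apart for Pcsk2, and growth cones stand apart from somata for Pcsk1n, Cpe and Chgb. A single library carries most of the signal for Pcsk1 in each kind of soma and for Pam in growth cones labelled KO.

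Pcsk1, the convertase that usually makes the first cuts, was close to absent from these libraries. In somata 7 of 10 libraries had 0 counts, which allows up to 0.172 CPM in the shallowest of them (3 counts, counting error only). The other soma libraries were WT 14 with 21 counts (0.624 CPM), WT 22 with 204 counts (6.63 CPM) and number 25 labelled KO with 215 counts (5.33 CPM). Signal in somata thus came almost wholly from 1 library in each genotype. WT growth cones 7 to 11 gave 2.30, 0.328, 3.36, 0.431 and 1.63 CPM, and growth cones labelled KO gave 0, 3.69, 0.277, 0.0961 and 2.56 CPM. Growth cones held some Pcsk1 in 9 of 10 libraries, at most 102 counts. Neither testable comparison of 2 groups called it, with log2 fold changes of -0.26 ± 1.26 between growth cones (edgeR adjusted p = 1.00) and 0.19 ± 1.60 between WT compartments (edgeR adjusted p = 0.938). Its interaction term, 0.16 ± 2.92, was not called either.

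The share of Pcsk2 in the pair, per kilobase of exon, puts the 2 enzymes on 1 scale that does not depend on scaling between libraries. In somata it was 89.3% to 100% (WT) and 97.2% to 100% (labelled KO). In growth cones it was 89.3% to 99.0% (WT) and 92.6% to 100% (labelled KO). PC2 transcripts were thus the larger part in all 20 libraries. With 0.5 counts added, the log2 ratio of Pcsk2 to Pcsk1 averaged 8.77 ± 4.05 in WT somata and 4.36 ± 1.48 in WT growth cones (SD, n = 5; exact permutation test, two-sided, p = 0.0794, adjusted over 3 comparisons 0.119). It averaged 11.9 ± 3.83 in somata and 6.55 ± 2.99 in growth cones labelled KO, which is a description, since it rests on the Pcsk2 counts through which the genes were chosen. The WT somata were part of that choice too, so the p-value between WT compartments is also read as a description. In the 7 soma libraries with 0 Pcsk1 counts (3 WT, 4 labelled KO) the ratio is set by the added 0.5 and the Pcsk2 count alone. Between the 2 kinds of growth cones it differed by 2.19 (exact p = 0.175). The 3 comparisons adjusted for include the one between compartments in libraries labelled KO, whose p-value is not read as support. Adjusted over these 3, no difference passed 0.05.

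Of the 2 genes for proteins that bind the convertases, Pcsk1n was called between compartments in both genotypes and Scg5 in neither. Pcsk1n, whose product proSAAS inhibits PC1/3, stood at 189, 139, 188, 189 and 65.5 CPM in WT somata and at 145, 152, 172, 156 and 132 CPM in somata labelled KO. In growth cones 7 to 11 it stood at 513, 755, 616, 541 and 884 CPM in WT and at 617, 527, 568, 362 and 828.8 CPM in those labelled KO. Every growth cone library exceeded every soma library. The log2 fold change was 2.15 ± 0.28 in WT and 1.99 ± 0.19 in libraries labelled KO (edgeR adjusted p = 8.49e-05 and 1.07e-05). Members without overlap between compartments numbered 3 of 10 in WT and 5 of 9 in libraries labelled KO, against 37.9% and 36.8% of all genes. By genotype Pcsk1n differed by -0.03 ± 0.24 in somata and by -0.18 ± 0.21 in growth cones (edgeR adjusted p = 1.00). Its exon partner Eras had 0 counts in 19 libraries.

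Scg5 encodes 7B2, the chaperone that PC2 needs to become active. Its means were 217 ± 16.9 CPM in WT somata, 222 ± 22.6 in somata labelled KO, 173 ± 23.1 in WT growth cones and 171 ± 56.3 in growth cones labelled KO. The log2 differences between compartments were -0.28 ± 0.13 in WT and -0.33 ± 0.20 in libraries labelled KO (edgeR adjusted p = 0.110 and 0.222), neither called. Without growth cone library 7 labelled KO, which held the highest Scg5 of its group at 254 CPM, the second of these became -0.54 (edgeR adjusted p = 0.0303). In somata, where Pcsk2 stood higher in those labelled KO, Scg5 differed by 0.03 ± 0.10, and in growth cones by -0.02 ± 0.22.

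Cpe, the carboxypeptidase that removes the basic residues left by the convertases, was the most abundant member in somata. WT somata gave 1130, 1073, 1386, 1258 and 1373 CPM and somata labelled KO gave 1112, 1273, 1187, 1365 and 1228 CPM. WT growth cones gave 672, 855, 633, 719 and 768 CPM, and those labelled KO gave 832, 648, 802, 534 and 630 CPM. The lowest soma library lay above the highest growth cone library. The level in growth cones fell by 0.73 ± 0.12 on the log2 scale in WT and by 0.79 ± 0.13 in libraries labelled KO (edgeR adjusted p = 0.000475 and 0.000448). The genotypes differed by -0.02 ± 0.09 in somata and by -0.07 ± 0.14 in growth cones (edgeR adjusted p = 1.00).

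Pam, the enzyme that amidates many neuropeptides at their end, was low in somata and uneven in growth cones. WT somata gave 1.19, 6.66, 4.48, 4.99 and 1.20 CPM, and somata labelled KO gave 6.03, 4.01, 4.91, 7.91 and 5.40 CPM. WT growth cones gave 3.13, 45.8, 8.40, 31.0 and 6.39 CPM, and those labelled KO gave 0.622, 3.003, 40.4, 5.604 and 11.8 CPM. Most growth cone libraries lay within or near the soma range, and 3 stood far above it. The log2 fold change between compartments was 2.39 ± 0.83 in WT and 1.16 ± 0.88 in libraries labelled KO (edgeR adjusted p = 0.0345 and 0.331). The WT call was lost without WT growth cone 8 (1.78, edgeR adjusted p = 0.104) or 10, and without WT soma 12, 22 or 26. In libraries labelled KO the difference was -0.05 (edgeR adjusted p = 0.971) without growth cone 9. B230216N24Rik, which shares exon bases with Pam on the same strand, was at 0.0415 to 16.8 CPM in growth cones and at most 2.88 CPM in somata. By genotype Pam differed by 0.60 ± 0.54 in somata and by -0.61 ± 1.01 in growth cones.

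The granins, the bulk cargo of the granule, did not move as a block. Chgb, which encodes chromogranin B, stood at 120, 164, 192, 208 and 280 CPM in WT somata and at 191, 218, 163, 164 and 130 CPM in somata labelled KO. It stood at 116, 47.4, 32.6, 36.4 and 74.3 CPM in WT growth cones and at 46.2, 66.9, 70.4, 67.8 and 97.1 CPM in those labelled KO. All growth cone libraries lay below all somata. The level fell by 1.60 ± 0.36 on the log2 scale in WT and by 1.26 ± 0.21 in libraries labelled KO (edgeR adjusted p = 0.00345 and 0.000643). Chga, which encodes chromogranin A, had means of 80.4 ± 12.5 and 87.7 ± 20.7 CPM in the 2 kinds of somata and 81.1 ± 23.0 and 106 ± 32.1 CPM in the growth cones, WT first. Its log2 differences were 0.06 ± 0.22 between WT compartments (edgeR adjusted p = 0.858) and 0.33 ± 0.24 between those labelled KO (edgeR adjusted p = 0.315).

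Scg2, the precursor of secretoneurin, gave the second largest genotype difference among the members tested in somata. WT somata gave 43.7, 66.3, 82.0, 92.8 and 68.2 CPM, and somata labelled KO gave 38.2, 45.1, 50.4, 33.7 and 7.73 CPM. The groups overlapped at 1 WT library (12), and number 26 labelled KO was far below the others. The fitted difference was -1.01 ± 0.39, which was not called, and it was -0.76 without that library. In growth cones Scg2 stood at 80.8, 99.0, 117, 46.8 and 87.4 CPM in WT and at 95.3, 64.3, 65.9, 52.5 and 127 CPM in those labelled KO, a log2 difference of -0.08 ± 0.28 (edgeR adjusted p = 1.00). Between compartments it was higher in growth cones in libraries labelled KO, by 1.25 ± 0.43 (edgeR adjusted p = 0.0385, no overlap). That call was lost without number 14 or 25 of the somata or 7, 9 or 11 of the growth cones labelled KO (edgeR adjusted p up to 0.0937). In WT the difference was 0.33 ± 0.26 (edgeR adjusted p = 0.337), and the interaction term, 0.92 ± 0.52, had an edgeR adjusted p of 0.839.

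Scg3, which holds granins at the granule membrane, was the steadiest granin between groups. Its means were 132 ± 22.1 CPM in WT somata, 116 ± 12.6 in somata labelled KO, 132 ± 28.3 in WT growth cones and 132 ± 32.1 in growth cones labelled KO. Compartments differed by 0.05 ± 0.18 in WT and by 0.25 ± 0.19 in libraries labelled KO (edgeR adjusted p = 0.862 and 0.327). Between somata the genotypes differed by -0.19 ± 0.13, and between growth cones by 0.02 ± 0.22. As a share of the mean, the SD was larger in growth cones than in somata for 8 of the 10 members in each genotype.

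In libraries labelled KO all 5 compartment calls (Pcsk1n, Scg2, Pcsk2, Cpe, Chgb) were lost when the log2 library total was a covariate, and the calls over all genes dropped from 5956 to 390. The fitted differences under the covariate were -2.56 for Pcsk2, 1.84 for Pcsk1n, 2.27 for Scg2, -0.59 for Cpe and -1.29 for Chgb, all in the same direction as without it. Every soma library labelled KO had a larger total than every growth cone library. Depth and compartment cannot be told apart there. Upper quartile scaling moved the all-gene median log2 difference from 0.07 to 0.28 in WT and from 0.09 to 0.31 in libraries labelled KO, and Pcsk1n, Cpe and Chgb kept their direction and their call under it in both genotypes.

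The same machinery was followed in 3 further lists, of 15 other convertases and trimming enzymes, 30 genes of granule biogenesis, membrane and release, and 32 peptide precursors and other cargo. Between the 2 kinds of somata, edgeR called 0 of 13 convertases tested and 0 of 26 granule genes (1 and 3 at an unadjusted p under 0.05, and 1 and 2 by DESeq2's Wald test). It called 2 of 20 precursors, both higher in those labelled KO (5 at an unadjusted p under 0.05, and 4 by DESeq2's Wald test), where 0.731% of all genes were called. These were Npy, which encodes neuropeptide Y, at 113 CPM in WT and 471 CPM in those labelled KO (log2 fold change 2.06 ± 0.15), and Cck, which encodes cholecystokinin, at 17.03 and 68.8 CPM (2.01 ± 0.23). Earlier results of these data already held Npy and Cck, so no test is given for them here. Between growth cones 0 of 11, 0 of 27 and 0 of 26 were called by edgeR, and at an unadjusted p under 0.05 the counts were 0, 1 and 0. DESeq2's Wald test called 0 in each. For the genotype difference in growth cones minus that in somata, edgeR called 0 of 13, 0 of 28 and 1 of 27 genes (0, 3 and 5 at an unadjusted p under 0.05), and DESeq2's Wald test called 0, 2 and 3. The 1 called by edgeR was Cck, at -2.21 ± 0.34, a description too, since its soma difference was known.

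Between WT growth cones and somata, 5 of 13 convertases and trimming enzymes were called, 1 higher and 4 lower in growth cones, with a median log2 fold change of -0.63 against 0.07 over all genes. With 42.8% of all genes called, this count is near the background. The lower ones included Pcsk5 (-1.52 ± 0.34, edgeR adjusted p = 0.00352), a convertase of growth factor precursors, the aminopeptidase Rnpep (-1.28 ± 0.30, edgeR adjusted p = 0.00466) and cathepsin L, Ctsl (-1.01 ± 0.24, edgeR adjusted p = 0.00545). The convertase Pcsk7 (-2.28 ± 0.86) was at the edge, with an edgeR adjusted p of 0.04995 that was lost in 14 of the 17 alternatives, and Pcsk4 was the higher one (1.32 ± 0.39, edgeR adjusted p = 0.0162). In libraries labelled KO 3 of 13 were called, all lower, where 38.7% of all genes were called: Ctsl (-1.05 ± 0.25), Pcsk5 (-1.84 ± 0.56) and the site-1 protease Mbtps1 (-0.98 ± 0.32), at edgeR adjusted p = 0.00661, 0.0211 and 0.0283. Their list had a median of -1.05 against 0.09 over all genes.

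Genes of the granule membrane and its release were called in both directions. In WT 6 of 27 were higher in growth cones and 7 lower, with a median of -0.06, near the background of 23.1% higher and 19.7% lower. Syt4, a synaptotagmin of dense-core granules, stood at 1058 CPM in somata and 171 CPM in growth cones of WT, a log2 fold change of -2.59 ± 0.14 (edgeR adjusted p = 1.66e-07). The small GTPase Rab3d (-2.65 ± 0.41), Cyb561, the granule cytochrome that supplies electrons for amidation (-1.56 ± 0.27), and Rundc1 (-1.38 ± 0.26) were also lower. The granule membrane phosphatase-like protein Ptprn rose from 12.7 to 44.4 CPM (1.85 ± 0.33, edgeR adjusted p = 0.000812), with Rph3a (1.44 ± 0.36), the calcium sensor Syt7 (1.20 ± 0.37) and Rab26 (3.38 ± 1.08) higher as well. Among 28 tested in libraries labelled KO, 8 were higher and 5 lower, against 21.4% and 17.3% of all genes. Syt4 again led the lower ones (-2.17 ± 0.18, edgeR adjusted p = 5.25e-06), with Rundc1 (-0.96 ± 0.24), Stx6 (-0.52 ± 0.15) and Syt10, at 1.84 CPM in somata and 0 in all growth cones (at least 16.2-fold lower). Ptprn (1.73 ± 0.33), Nucb2 (1.12 ± 0.29), Rph3a (1.06 ± 0.30) and Baiap3, which was at least 175-fold higher, were among those that rose. Baiap3 passed the count filter only through its growth cone counts, and Syt10 only through its soma counts. The direction of each was thus set by the filter.

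Peptide precursors were mostly higher in growth cones than in somata. In WT 18 of 25 were called higher and 1 lower, where 23.1% and 19.7% of all genes were, with a median log2 fold change of 3.32 against 0.07 over all genes. With the 3 genes at the count floor put at their bound the median was also 3.32. Crh, Trh, Calca, Calcb and Avp were among those called higher. They failed the count filter between the 2 kinds of somata and passed here through their growth cone counts. Their direction was thus set by the filter. Sst, which encodes somatostatin, rose from 4.22 to 129 CPM (log2 fold change 4.98 ± 0.31, edgeR adjusted p = 4.84e-07) and Penk, the enkephalin precursor, from 2.94 to 44.5 CPM (3.97 ± 0.46, edgeR adjusted p = 3.45e-05). Cck rose from 17.03 to 125 CPM (2.92 ± 0.28), a description, since its difference between these WT somata and those labelled KO was known. Calcb, of the calcitonin gene-related peptides, was at 0 in WT somata and at 8.69 CPM in growth cones of WT (at least 80.1-fold higher, with the bound from 3 counts per library). Adcyap1, the precursor of PACAP, fell from 81.4 to 10.5 CPM (-2.91 ± 0.27, edgeR adjusted p = 7.38e-06). Of 23 tested in libraries labelled KO, 15 were higher and 2 lower (median 3.61, and 3.61 with 3 genes at their bound), led by Sst (4.96 ± 0.48), Pomc (5.13 ± 0.57), Pmch (at least 28.5-fold) and Calcb (at least 37.6-fold). Calcb, Avp and Pmch, all called higher there, likewise passed the filter only through their growth cone counts. The lower ones were Adcyap1 (-2.55 ± 0.49) and Npy (-1.50 ± 0.24), the latter at 471 CPM in somata and 161 CPM in growth cones labelled KO, where the soma level was known. Sst and Npy are also made by interneurons, and the means of the hypothalamic precursors Avp, Pomc and Pmch in somata were at most 0.0185, 0.982 and 0.0120 CPM. The interneuron, hindbrain and spinal cord markers given above rose beside these precursors, and their part was not tested.

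**Figure D5:**
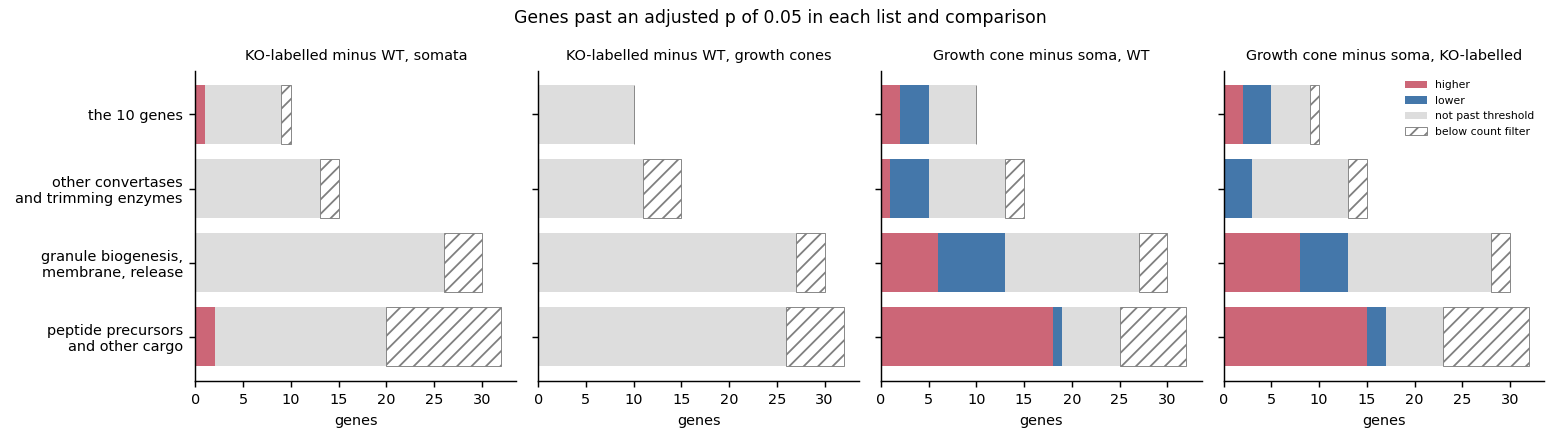
Number of genes called higher (red), called lower (blue), not past the threshold (grey) and below the count filter (hatched) among the 10 members and the 3 further lists, in each of the 4 comparisons. Calls are few between genotypes (1 member and 2 precursors in somata, none in growth cones by edgeR) and many between compartments, where the precursors are mostly higher (18 of 25 tested in WT and 15 of 23 in libraries labelled KO). Some of those precursors passed the count filter only through their growth cone counts.

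The genes whose pattern over all 20 libraries was most like that of Pcsk2 were not other members. By the root mean square difference in centred log2 (CPM + 1) among the 11339 genes whose mean level reached 5 CPM, the nearest were Garnl3 (0.525), Rab31 (0.536), Pak7 (0.605), Rabggta (0.612) and Etv5 (0.627). Rab31, for example, had means of 148 ± 43.4 and 328 ± 22.03 CPM in the 2 kinds of somata and 58.5 ± 16.98 and 85.7 ± 36.0 CPM in the growth cones, WT first. The nearest member was Cpe, at rank 1036 (0.914), followed by Chgb at rank 1800 (0.988) and Scg5 at rank 1868 (0.993), and Pcsk1n was the farthest of those compared, at rank 10004 (2.05). This likeness rests on the same libraries that set the levels and is a description.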

How the data were processed

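The authors deposited unscaled read counts per gene, with a column for each library. The submitters' processing notes name Trimmomatic 0.39, STAR 2.7.1a, featureCounts 1.5.0 and the build GRCm39. The coordinates in the deposited count table are those of GRCm38, since the exons of 54435 of 55487 genes (98.1%) are identical to those in GENCODE M21. Symbols were found for 55141 genes. Strand use and multi-mapping reads are not given in the sources used here. Libraries were full-length cDNA from low amounts of RNA, without molecular identifiers in the labels' protocols, so count floors cover counting error only. All entries named a gene, and each library column was matched by its title. Groups come from the library titles. No replicate pair agreed within sampling noise (smallest chi-square per degree of freedom 56.6).

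Comparisons used edgeR 4.0.16 in R 4.3.3: filterByExpr (minimum count 10), TMM scaling, the quasi-likelihood F test and Benjamini-Hochberg adjustment at 0.05, with 5 libraries per group and only the compared groups in a fit; the interaction used all 20. The SE of a log2 fold change was derived from the F statistic. Adjusted p-values for genes are from edgeR unless another test is named. Levels are CPM with TMM scaling over 20 libraries, and a fold against a group with at most 3 counts per library is a bound. Single values were compared by exact permutation over 252 regroupings. The fitting code was tested on simulated data. Alternatives were DESeq2 1.42.0 size factors and its Wald test, upper quartile scaling, library totals alone, no count filter, log2 library total as covariate, all 20 libraries in 1 fit, the experiment number as block, and each library left out.

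The members, the lists and the alternatives were chosen with earlier results of these data known. The rule for names took all 10 members, Bcl11b, up to 4 called genes per direction and list with the lowest p, the leading genes of marker lists and the 5 genes most like Pcsk2. Marker lists of cholinergic or monoaminergic neurons, microglia and cycling cells are shown in a plot. Promoters are from RefSeq (GRCm38.p6). Proteins were not analysed here.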

Additional observations from a re-analysis of the deposited data

Results flagged for a closer look

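Within groups of 5 libraries, 52 sets of values were searched for a single library far from the other 4, and 3 stood out. Chance gives this in about 1 in 20 sets. Pcsk1 was at 6.63 CPM in WT soma 22, where the next library was at 0.624 CPM. It was at 5.33 CPM in soma 25 labelled KO, where the other 4 were at 0. Pam was at 40.4 CPM in growth cone 9 labelled KO, where the next was at 11.8 CPM, and its compartment difference in those libraries rests on it.

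The genotype difference of Cck in growth cones minus that in somata was -2.21 on the log2 scale, past the threshold of edgeR's interaction term. Its soma difference was known from earlier results, so the value is a description. Cck went from 17.03 ± 6.17 to 68.8 ± 4.79 CPM between the 2 kinds of somata, and stood at 125 ± 24.2 CPM in WT growth cones and 109 ± 30.3 CPM in those labelled KO. It was not called with the log2 library total as covariate (-2.29).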

How the results depend on the processing

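The Pcsk2 difference between somata was 1.49 to 1.70 with any library left out and 1.57 to 1.60 under the other alternatives. The fit of all 20 libraries called 0 members there. Calls over all genes in somata, 109, became 393 with DESeq2's Wald test, 42 with the library total as covariate, 30 with all 20 libraries and 67 to 107 with a library left out. For growth cones by genotype the count of 0 became 11 with DESeq2's Wald test and 7 with all 20 libraries, and 0 genes of the 10 in each; 0 genes at edgeR's threshold is not evidence of no difference. The WT compartment calls among members, 5, became 3 without the count filter and 3 to 5 with a library left out (3 without WT soma 12, 22 or 26 or WT growth cone 8). With the library total as covariate, compartment calls labelled KO became 0 members and 390 genes, with Pcsk2 at -2.56 and Pcsk1n at 1.84, and Stx6 turned to 0.087. The interaction count, 7, became 262 with DESeq2's Wald test, 0 with the covariate and 5 to 12 with a library left out (12 without WT growth cone 7, 11 without growth cone 7 labelled KO). The log2 ratio of Pcsk2 to Pcsk1 between compartments was -5.84 to -3.55 in WT, passing at -5.84 without WT soma 22 (exact permutation p = 0.0159), and -7.08 to -4.64 in libraries labelled KO. Both are descriptions, since the somata of both genotypes were in view when the genes were chosen.

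Experiment numbers shared between genotypes were checked for pairing: across genes, the correlation of same-numbered deviations was 0.02 to 0.11 for 5 growth cone pairs, with 9 of 10 libraries closest to their own number, and -0.01 to 0.11 for 4 soma pairs, with 5 of 8. The main fits did not use the numbers as pairs, so any spread shared within a number stayed in their error. With the replicate block, 34 genes were called in somata, Pcsk2 among them at 1.57, 0 in growth cones and 0 for the interaction, where Cck stood at -2.21 and was not called. Pcsk1 had 0 counts in 7 of 10 somata, among them the library with the largest total (number 22 labelled KO, 51205154 counts). The part of depth in this was not tested.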
